A study of Mus musculus with 16 samples.

Results

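The gene loci examined here were those of 10 subunits of activator protein 1 (AP-1): Fos, Fosb, Fosl1, Fosl2, Jun, Junb, Jund, Atf3, Batf and Maff. Chromatin accessibility was measured by bulk ATAC-seq, in which the Tn5 transposase inserts sequencing adapters into open DNA, so that the reads counted in a region (a peak) rise with its openness. A peak was assigned to a gene when the nearest protein-coding start site to its midpoint belonged to that gene and lay within 100 kb. By this rule 99 of 136630 nuclear peaks belonged to the 10 genes, with 20 peaks at Jun, 19 at Fosl2, 18 at Fos, 15 at Atf3, 7 at Maff, 6 each at Fosb and Batf, 5 at Fosl1, 2 at Jund and 1 at Junb. The farthest member lay 91.7 kb from its start site (Jun) and the nearest peak left out by the limit lay 100.3 kb from that of Fosl2.

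The cells were KC-shSmad4 pancreatic ductal adenocarcinoma cells of the mouse, which carry a Ptf1a-Cre driver, the mKate2 reporter with rtTA3 at Rosa26 and a doxycycline-inducible hairpin against Smad4, the shared signalling partner of the TGF-beta pathway. All 16 samples therefore share Cre, the reporter and the hairpin, and the groups differ by organ and by doxycycline. Cells were placed in the pancreas, reached the liver after injection into the spleen, or seeded the lungs from the tail vein of female Foxn1nu (nude) hosts aged 6 to 8 weeks, which lack T cells. With doxycycline the hairpin was on and Smad4 was off (Panc_OFF, n = 3; Liv_OFF, n = 2; Lung_OFF, n = 3), and with doxycycline withdrawn for 14 days Smad4 was restored (Panc_ON, n = 3; Liv_ON, n = 2; Lung_ON, n = 3). The lung columns of the deposited table are named for day 15 rather than 14. Withdrawal began 4, 5 and 6 weeks after injection in pancreas, liver and lungs, so organ, injected dose and time cannot be told apart. Each sample was 60000 sorted mKate2-positive cells from its own mouse, and which of the study's cell lines gave each sample is not given in the sources used here.

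AP-1 is a dimer of basic leucine zipper proteins. Jun, Junb and Jund can pair with one another or with Fos, Fosb, Fosl1 and Fosl2, which need a Jun partner to bind DNA, and the dimers recognise the sequence TGACTCA, the AP-1 or TPA response element. Atf3 and Batf pair with Jun proteins and can dampen or redirect AP-1 activity, and the small Maf protein Maff has no transactivation domain of its own. Fos, Fosb, Junb and Atf3 are classical immediate early genes, switched on within minutes of growth factor or stress signals through serum response factor at CArG boxes and through CREB-family factors at cyclic AMP response elements (CRE), whereas Fosl1 and Fosl2 are delayed targets and Jund is made constitutively in many cells. Signalling through the MAP kinases is a known input to AP-1.

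The 16 libraries held 22495044 to 37510981 reads in nuclear peaks. Values are normalised counts, and a difference was called when its log2 fold change reached 0.58 in size with an adjusted p of at most 0.1 in a limma fit on log2(normalised count + 1) across all 136630 peaks. Panc_ON replicate 3 and Lung_OFF replicate 1 stood apart from the other libraries of their groups, with chi-square per degree of freedom of 14.0 and 20.3 against 3.68 between the other Panc_ON pair, and of 16.3 and 17.9 against 7.79 between the other Lung_OFF pair. Start-site peaks of all 7 ductal and tumour epithelial markers were open in every group, with summed counts of 15844 to 23807 in the pancreas, 36954 to 48672 in the liver and 22361 to 32327 in the lungs. Of 7 hepatocyte markers only Ttr and Apob had a peak within 1000 bp of a start site, with sums of 719 to 1172 in liver libraries and 233 to 608 in the others, and Alb, Apoa1 and Tat had none. None of 5 lung epithelial markers had such a peak, and 2 of 6 acinar markers did (402 to 622 in the liver and 77.3 to 223 elsewhere). Start-site sums over 5 fibroblast markers were 470 to 1206 in the pancreas and 103 to 437 in the metastases. Sums over 2 of 5 immune markers were 460 to 796 in the liver and 215 to 420 elsewhere. Of these, Cd68 had means of 615 in Liv_OFF, 351 in Lung_OFF and 241 in Panc_OFF, and Csf1r of 12.8, 24.1 and 22.3. Sums over 3 of 4 endothelial markers were 101.6 to 200.1 except for 1 Lung_OFF library at 734. Only Cdh5 was higher on average in Lung_OFF than in Panc_OFF (293 and 44.9). Kdr (17.8 and 56.25) and Tie1 (37.0 and 57.3) went the other way. In bulk samples a smaller share of cells with an open site and a less open site in every cell cannot be told apart.

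The sequences below lie in peaks described in the results and were read from the GRCm38 (mm10) reference on the plus strand. They are in lower case with any matched motif in capitals, and the part of these sites in the differences was not tested. The first 3 lie just upstream of start sites inside the broad start-site peaks, where the match nearest the start site is shown. They are the CArG box 309 bases before the Fos start (chr12:85473531-85473640), the CArG box 257 bases before a Fosb start (chr7:19310258-19310367) and the CRE 214 bases before the Jund start (chr8:70698685-70698792).
Fos CArG box: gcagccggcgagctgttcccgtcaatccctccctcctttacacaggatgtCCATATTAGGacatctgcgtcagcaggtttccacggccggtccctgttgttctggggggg
Fosb CArG box: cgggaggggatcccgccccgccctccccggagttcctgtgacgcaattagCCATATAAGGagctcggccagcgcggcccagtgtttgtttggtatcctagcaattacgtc
Jund CRE: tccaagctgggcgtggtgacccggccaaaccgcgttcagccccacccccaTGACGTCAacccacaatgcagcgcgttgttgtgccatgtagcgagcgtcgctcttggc

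The next 4 are AP-1 matches nearest the centre of distal peaks whose accessibility differed between organs or with Smad4, at chr4:95098382-95098488 (Jun, 46.2 kb upstream), chr4:95035640-95035746 (Jun, 16.6 kb downstream), chr5:32052575-32052681 (Fosl2, 83.5 kb upstream) and chr1:191193750-191193856 (Atf3, 10.5 kb upstream of its downstream start site). The capitals TGAGTCA are the AP-1 motif read on the other strand. The last, chr4:95076022-95076221, is the central 200 bases of the Jun peak 23.9 kb upstream, which was chosen after its values were seen because it had the largest log2 fold change of the 99 peaks between Liv_OFF and Lung_OFF. It holds none of the motifs searched.
Jun, 46.2 kb upstream: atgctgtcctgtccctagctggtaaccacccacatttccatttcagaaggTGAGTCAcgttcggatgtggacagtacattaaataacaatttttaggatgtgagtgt
Jun, 16.6 kb downstream: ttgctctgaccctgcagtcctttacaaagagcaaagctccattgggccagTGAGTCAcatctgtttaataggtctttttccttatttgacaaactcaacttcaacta
Fosl2, 83.5 kb upstream: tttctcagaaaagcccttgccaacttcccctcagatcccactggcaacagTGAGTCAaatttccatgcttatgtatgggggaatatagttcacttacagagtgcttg
Atf3, 10.5 kb upstream: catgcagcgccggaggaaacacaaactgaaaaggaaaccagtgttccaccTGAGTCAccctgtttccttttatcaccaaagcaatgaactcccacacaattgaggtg
Jun, 23.9 kb upstream: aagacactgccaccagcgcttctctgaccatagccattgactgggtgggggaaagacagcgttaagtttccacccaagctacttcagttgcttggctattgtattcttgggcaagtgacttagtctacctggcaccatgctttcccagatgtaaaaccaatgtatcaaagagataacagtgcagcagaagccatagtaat

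The start-site peaks came first, since they stand at the promoters of the 10 genes. They were broad, from 848 bases at Batf to 17272 bases at Fosb (median 8073 bases, against 589 for all peaks), and that of Jund also covered the start of Iqcn. At Fos (ENSMUSG00000021250.13, chr12:85473890-85477273), the prototype immediate early subunit, the start-site peak spanned chr12:85471733-85481068 and covered the whole gene. It held 8153 and 9094 normalised counts in Liv_OFF, 6842, 6997 and 6894 in Panc_OFF and 4682, 6205 and 5340 in Lung_OFF. Both liver libraries lay above every pancreas and lung library with Smad4 off, and Liv_OFF exceeded Lung_OFF by a log2 fold change of 0.68 ± 0.13 (SE, adjusted p = 0.000638). Against Panc_OFF the log2 fold change was 0.32 ± 0.13 (adjusted p = 0.0422), under the fold needed for a call.

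Jun (chr4:95049034-95052222), the canonical partner of Fos, had 4837 and 5599 counts in Liv_OFF, 3771, 3920 and 4098 in Panc_OFF and 2937, 3403 and 3104 in Lung_OFF. These 3 groups did not overlap, and the difference between Liv_OFF and Lung_OFF was called (log2 fold change 0.73 ± 0.12, adjusted p = 0.000297) while that to Panc_OFF was not (0.41 ± 0.12, adjusted p = 0.00966). Jund (chr8:70698949-70700616), the subunit made in most resting cells, had 10488 and 10434 counts in Liv_OFF against 5372, 7611 and 6552 in Lung_OFF and 7927, 7319 and 7144 in Panc_OFF. Its peak was higher in Liv_OFF than in Lung_OFF (0.70 ± 0.12, adjusted p = 0.000434). Junb (chr8:84974484-84978718), often opposed to Jun in growth control, had the highest counts of the 10, at 17703 and 18473 in Liv_OFF and 11598 to 15072 in the other Smad4-off libraries, and its log2 fold change of 0.48 ± 0.09 against Lung_OFF (adjusted p = 0.000835) fell short of the fold threshold.

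Fosl2 (chr5:32135801-32157842), a Fos relative tied to matrix and fibrosis genes, was the member whose start-site peak differed from both other organs. It had 7846 and 7889 counts in Liv_OFF, 5475, 5030 and 5282 in Panc_OFF and 4791, 5140 and 4977 in Lung_OFF. The liver libraries stood clear of the rest, with log2 fold changes of 0.66 ± 0.10 against Lung_OFF (adjusted p = 0.000169) and 0.58 ± 0.10 against Panc_OFF (adjusted p = 0.000249). With Smad4 restored the liver libraries held 5913 and 6647 counts, still above the 4051 to 5504 of the restored pancreas and lung libraries. Fosb (chr7:19302696-19310051), an early subunit like Fos, was called higher in Liv_OFF than in Lung_OFF (0.67 ± 0.16, adjusted p = 0.00307), but its liver libraries were far apart, at 9467 and 13446 counts against 6107, 8230 and 7110, and the 9658 to 10741 counts of Panc_OFF lay between them.

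The remaining 4 promoters gave smaller differences or low counts. Maff (chr15:79346621-79359076) had 3466 and 3702 counts in Liv_OFF against 2601 to 2938 in the other Smad4-off libraries (0.34 ± 0.09 against Lung_OFF, adjusted p = 0.0042, not called). Fosl1 (chr19:5447547-5455946), the Fos relative linked to invasive carcinoma, was nearly level, between 1570 and 1928 counts in all Smad4-off libraries. Batf (chr12:85686669-85709087), a subunit best known from lymphocytes, was weakly open, with 57.2, 92.0 and 88.0 counts in Panc_OFF, 48.1 and 32.0 in Liv_OFF and 33.1, 35.9 and 46.5 in Lung_OFF, and it was called lower in Liv_OFF than in Panc_OFF (-0.96 ± 0.45, adjusted p = 0.0767). Atf3 (chr1:191170296-191218039), a stress-induced subunit, has 2 annotated start sites. The peak assigned to it lay 854 bases from the upstream one and held 1213 and 1425 counts in Liv_OFF against 916 to 1104 in the other Smad4-off libraries (0.34 ± 0.13 against Lung_OFF, adjusted p = 0.0337, not called). The downstream start site of Atf3 sat in a peak 27343 bases wide whose midpoint assigned it to Fam71a, so it is no member. That peak averaged 20154 counts in Liv_OFF and 10711 in Lung_OFF (log2 fold change 0.93, adjusted p = 6.45e-05).

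**Figure D1:**
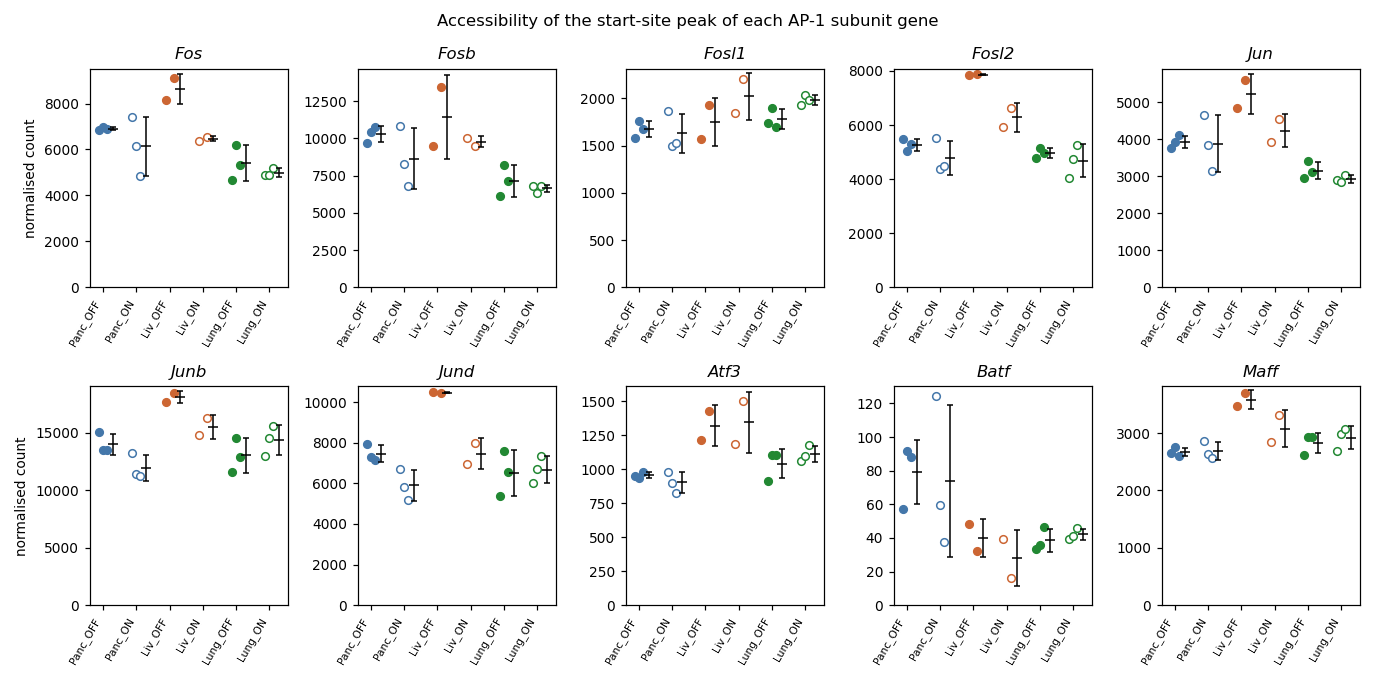
Normalised count (y axis, from 0) of the start-site peak of each of the 10 genes in the 6 groups (x axis). Filled points are Smad4-off and open points Smad4-restored libraries, and black bars give the mean ± SD (n = 3, or 2 in the liver). The 2 Liv_OFF libraries are the highest of all at Fos, Fosl2, Jun, Junb, Jund and Maff, and Batf stays between 16.2 and 124 counts.

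Of the 10 start-site peaks, 5 were called higher in Liv_OFF than in Lung_OFF and 0 lower, where 21.5% of the 14785 peaks within 1000 bp of a start site were called higher and 6.30% lower. The median log2 fold change of the 10 was 0.57, beside 0.39 for the peaks near start sites. In 6 of the 10 both Liv_OFF libraries lay above the other 14 libraries, a pattern noticed in the values and shared by 32.7% of the peaks near start sites. Against Panc_OFF, 1 of 10 was higher (Fosl2) and 1 lower (Batf), where 23.6% and 9.17% of the peaks near start sites were called. Between Lung_OFF and Panc_OFF no start-site peak was called, although Fosb (-0.53 ± 0.14, adjusted p = 0.0225) and Fos (-0.36 ± 0.11, adjusted p = 0.0478) passed the p threshold alone. The order of the 6 group means ran from Liv_OFF through Panc_OFF, Liv_ON, Panc_ON and Lung_OFF to Lung_ON at both Fos and Fosb. At Fos the first 3 groups in that order were apart in their libraries and the later neighbours overlapped, and at Fosb every pair of neighbours overlapped. At Fosl2 the order was Liv_OFF, Liv_ON, Panc_OFF, Lung_OFF, Panc_ON and Lung_ON, with overlap between all neighbours from Panc_OFF down. At Jun, Junb, Jund and Maff only Liv_OFF was apart from the group next to it.

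The summed start-site counts of the 7 ductal markers were also highest in Liv_OFF (48532 and 48672). Sox9 among them was not, with means of 2951 in Liv_OFF, 3155 in Panc_OFF and 3053 in Lung_OFF. The part of these markers in the start-site differences was not tested. The 5 start-site calls against Lung_OFF depended on scaling. After quantile normalisation none was called, with log2 fold changes of 0.29 at Fos, 0.29 at Fosb, 0.23 at Fosl2, 0.31 at Jun and 0.35 at Jund, and after correction for GC content those of Fosl2 and Jund (0.44 each) were lost, in each case without a change of sign. The Fosb call was also lost without Liv_OFF replicate 2 (0.42) or Lung_OFF replicate 1 (0.56), that of Jund without Lung_OFF replicate 1 (0.57), and the Fosl2 call against Panc_OFF without Panc_OFF replicate 2 (0.55), without Liv_OFF replicate 2 (0.58), with TMM factors (0.49), after GC correction (0.45) and after quantile normalisation (0.07).

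Across all 99 peaks, 34 (34.3%) were higher and 26 (26.3%) lower in Liv_OFF than in Lung_OFF, where 22.9% and 26.8% of all 136630 peaks were called in those directions. The median log2 fold change was 0.25 for the 99 and 0.00 for all peaks. Against Panc_OFF, 33 (33.3%) were higher and 27 (27.3%) lower in Liv_OFF, with 26.2% and 32.3% of all peaks called. The Liv_OFF libraries are shared by both comparisons. Between Lung_OFF and Panc_OFF 3 peaks were higher and 6 lower, beside 6.59% and 10.7% of all peaks. That count was 3 without Panc_OFF replicate 3 and 17 without Lung_OFF replicate 1.

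At Fos 9 peaks were higher in Liv_OFF than in Lung_OFF and 2 lower. The 8 higher ones outside the start-site peak all lay upstream, between 47.6 and 10.1 kb before the start, and the 2 lower ones lay 23.6 and 45.9 kb downstream. The distal Fos peak with the strongest difference over the 6 groups lay 21.7 kb upstream (chr12:85451277-85453184, intergenic). It held 2549 and 3152 counts in Liv_OFF, 596, 1216 and 978 in Lung_OFF and 828, 882 and 790 in Panc_OFF, so that both liver libraries stood above every other Smad4-off library. The log2 fold change was 1.67 ± 0.20 against Lung_OFF (adjusted p = 3.91e-05) and 1.77 ± 0.20 against Panc_OFF (adjusted p = 1.36e-05). On the other side of the gene, the peak 23.6 kb downstream, named after its values were seen, held 415 and 365 counts in Liv_OFF and 655 to 991 in Lung_OFF and Panc_OFF libraries (-1.03 ± 0.21 against Lung_OFF, adjusted p = 0.00119).

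Jun had peaks of both kinds, 6 higher and 10 lower in Liv_OFF than in Lung_OFF. The peak 23.9 kb upstream (chr4:95075461-95076784, intergenic), whose centre is printed above, held 127 and 357 counts in Liv_OFF and 254 and 371 in Liv_ON. In the pancreas it held 2.56, 10.7 and 2.78 with Smad4 off and 6.22, 18.6 and 0 with Smad4 restored, and in the lungs between 1.92 and 8.98. It was open in the 4 liver libraries and near 0 in the other 12, with a log2 fold change of 5.58 ± 0.93 against Lung_OFF (adjusted p = 0.000289) and of 5.31 ± 0.93 against Panc_OFF (adjusted p = 0.000245). Ductal, hepatocyte, acinar and immune marker sums were also higher in the liver libraries, as given above. Sox9 among the ductal markers was not, and the immune sum was higher through Cd68 and not Csf1r. The part of these markers in this difference was not tested.

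The peak 46.2 kb upstream of Jun (chr4:95098205-95098645) showed the opposite order and carries the AP-1 match printed above. It held 12.3 and 5.57 counts in Liv_OFF against 112, 57.6 and 88.7 in Lung_OFF and 122, 84.0 and 124 in Panc_OFF. The liver libraries lay below all others of the Smad4-off groups, with log2 fold changes of -3.17 ± 0.39 (adjusted p = 4.12e-05) and -3.55 ± 0.39 (adjusted p = 1.06e-05). Another pattern was seen 13.9 kb downstream of Jun, where Panc_OFF held 58.1, 100.5 and 106 counts, Lung_OFF 3.45 to 5.43 and Liv_OFF 13.6 and 6.97. This peak, named after its values were seen, was lower in Lung_OFF than in Panc_OFF (-3.98 ± 0.52, adjusted p = 0.000401). The restored pancreas libraries held 116, 118 and 37.6 counts there. Pancreas libraries also had the higher fibroblast marker sums given above, whose part in the difference was not tested.

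Fosl2 was divided by position, with 6 peaks higher and 8 lower in Liv_OFF than in Lung_OFF. The 8 lower ones lay between 89.9 and 31.5 kb upstream, 6 of them in introns of another gene. Among them the peak 83.5 kb upstream held 50.6 and 41.8 counts in Liv_OFF, 375, 131 and 337 in Lung_OFF and 307, 353 and 406 in Panc_OFF (-2.45 ± 0.36 against Lung_OFF, adjusted p = 0.000119). The higher ones were the start-site peak and peaks at 14.2 and 10.7 kb upstream and 7.79, 43.1 and 47.6 kb downstream. The distal Fosl2 peak of strongest difference was the last of these (chr5:32182919-32183935, intergenic), with 710 and 1049 counts in Liv_OFF, 267, 416 and 327 in Lung_OFF and 250, 280 and 212 in Panc_OFF. Its liver libraries did not overlap the rest, and it differed by 1.38 ± 0.21 from Lung_OFF (adjusted p = 0.000159). A larger difference was seen at the peak 14.2 kb upstream, named after its values were seen. There Liv_OFF held 285 and 488 counts, Lung_OFF 56.1, 89.1 and 47.4 and Panc_OFF 38.4, 36.6 and 34.3 (2.57 ± 0.39 against Lung_OFF, adjusted p = 0.000148).

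**Figure D2:**
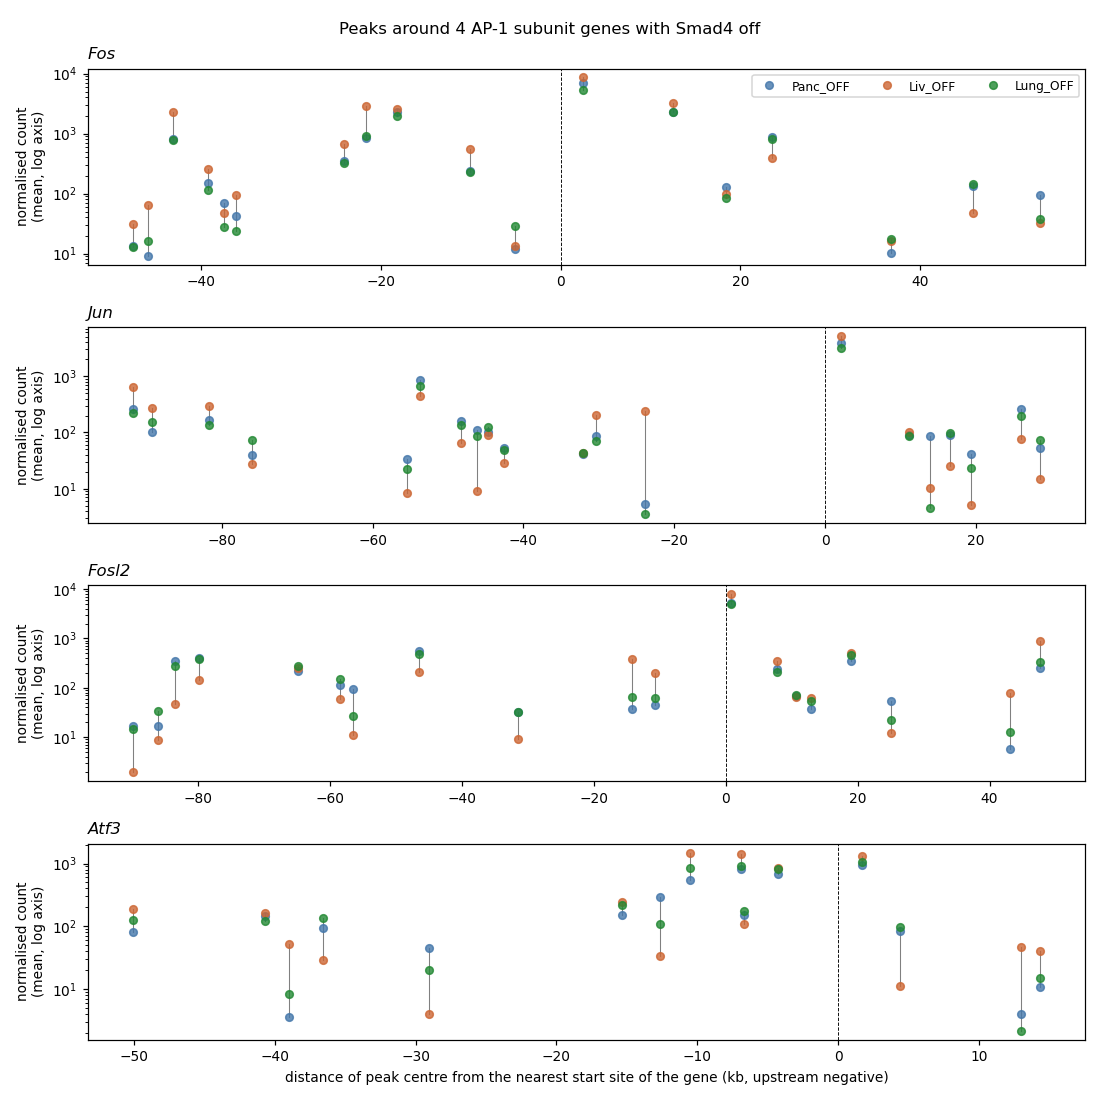
Mean normalised count (y axis, log scale) of every peak of Fos, Jun, Fosl2 and Atf3 in the 3 Smad4-off groups, against the distance of the peak centre from the nearest start site of the gene (x axis, kb, upstream negative, dashed line at the start). Grey lines join the 3 group means of a peak. Liver means stand above the others upstream of Fos and below them far upstream of Fosl2.

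Atf3 had 5 peaks higher and 5 lower in Liv_OFF than in Lung_OFF. Its leading distal peak, in an intron 10.5 kb upstream of the downstream start site (chr1:191193081-191194621), held 1224 and 1774 counts in Liv_OFF, 644, 960 and 925 in Lung_OFF and 601, 567 and 478 in Panc_OFF. The 3 organs were ordered liver, lungs, pancreas without overlap, and all 3 differences were called (0.83 ± 0.20 for liver against lungs, 1.43 ± 0.20 for liver against pancreas and 0.60 ± 0.18 for lungs against pancreas). The first call was lost without Liv_OFF replicate 2 (0.56) and after quantile normalisation (0.49), and the last without Panc_OFF replicate 3 (0.51), Lung_OFF replicate 2 (0.50) or Lung_OFF replicate 3 (0.52) and after quantile normalisation (0.55). Maff had 3 higher and 0 lower, and against Panc_OFF 4 higher and 0 lower. The higher peak nearest the gene on its upstream side, 3.41 kb away and named after its values were seen, held 268 and 428 counts in Liv_OFF, 145, 253 and 181 in Lung_OFF and 126, 136 and 126 in Panc_OFF, in that order without overlap (0.85 ± 0.27 against Lung_OFF, adjusted p = 0.016). The leading distal peak of Maff 21.0 kb downstream differed less (2384 and 2543 counts in Liv_OFF, 1681 to 2212 in Lung_OFF) and was not called. At Fosb the peak 12.1 kb upstream held 1140 and 1478 counts in Liv_OFF and 673, 851 and 767 in Lung_OFF, a called difference of 0.77 ± 0.15 (adjusted p = 0.000673), while its other 4 distal peaks were not called. Fosl1 had 1 peak higher and 1 lower in Liv_OFF than in Lung_OFF, and against Panc_OFF 2 higher and 1 lower. Its leading distal peak, 2.38 kb upstream, was the lower one, with 227 and 217 counts in Liv_OFF and 466 to 695 in Lung_OFF and Panc_OFF libraries (-1.45 ± 0.17 against Lung_OFF, adjusted p = 2.97e-05). The only distal peak of Jund, 11.2 kb upstream, was called higher in Liv_OFF than in Lung_OFF (0.79 ± 0.37, adjusted p = 0.0845), a call lost in 13 of 26 alternatives. The leading distal peak of Batf, in an intron 11.7 kb downstream, held 120 and 146 counts in Liv_OFF and 104 to 197 in the other Smad4-off libraries and was called in none of their comparisons, and Junb had no distal peak.

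**Figure D3:**
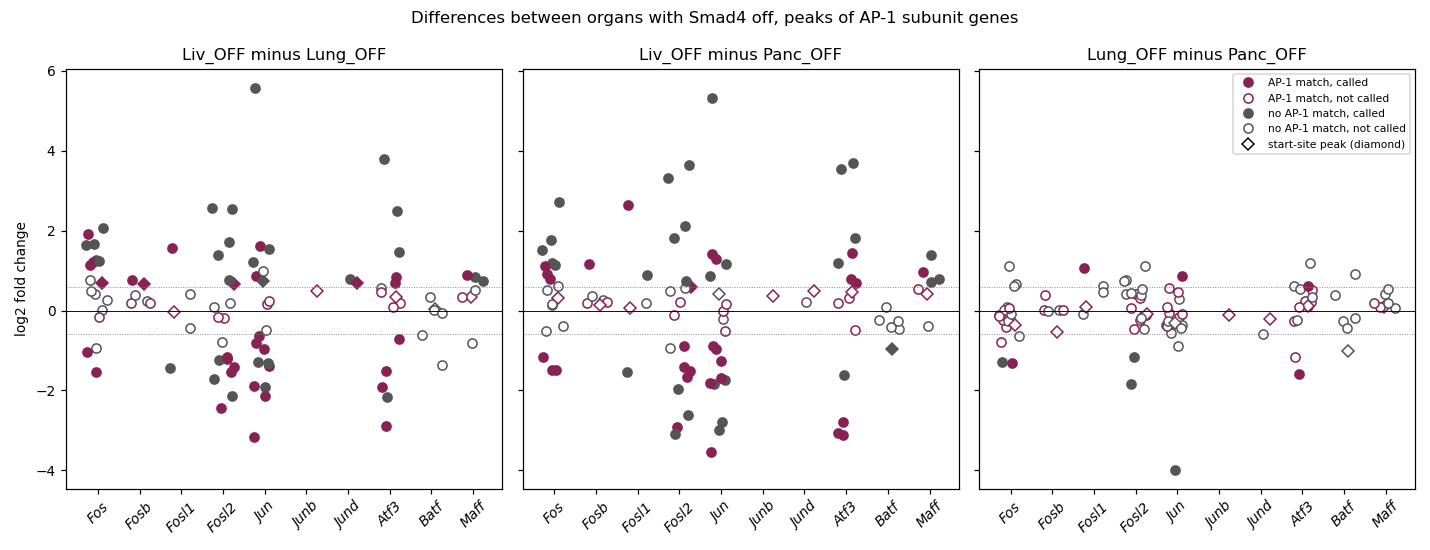
Log2 fold change (y axis) of each of the 99 peaks, by gene (x axis), for the 3 organ comparisons with Smad4 off. Filled points were called, open points were not, diamonds are start-site peaks, purple marks a peak with an AP-1 match, and dotted lines mark ±0.58. Points above and below 0 are mixed at Fos, Fosl2, Jun and Atf3, whereas the called Maff peaks are all higher in the liver.

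The same comparisons with Smad4 restored used other mice. Between Liv_ON and Lung_ON 24 peaks (24.2%) were higher and 17 (17.2%) lower, beside 17.6% and 18.2% of all peaks, and the total of 41 became 18 without Liv_ON replicate 2. Between Liv_ON and Panc_ON 35 (35.4%) were higher and 28 (28.3%) lower, beside 27.1% and 32.2%. Between Lung_ON and Panc_ON 24 (24.2%) were higher and 12 (12.1%) lower, beside 12.8% and 14.9%, and the total of 36 became 23 without Panc_ON replicate 2. The 24 higher peaks were 5 each at Fosl2 and Maff, 3 each at Fos, Fosl1, Jun and Atf3, and 1 each at Fosb and Jund. The Fos peak 21.7 kb upstream illustrates them, with 828, 891 and 883 counts in Lung_ON and 487, 477 and 504 in Panc_ON, ranges that do not meet (0.82 ± 0.18, adjusted p = 0.00449). No start-site peak was called higher in any comparison of restored organs, where 11.3% (Liv_ON against Lung_ON), 20.9% (Liv_ON against Panc_ON) and 8.10% (Lung_ON against Panc_ON) of the peaks near start sites were, and that of Batf was lower in Liv_ON than in Panc_ON (-1.33 ± 0.45, adjusted p = 0.0193), a call lost without Liv_ON replicate 2 (-0.71). The Batf call of Liv_OFF against Panc_OFF was lost without Panc_OFF replicate 2 or 3 and without Liv_OFF replicate 2. At Fos the start-site counts were 6385 and 6559 in Liv_ON and 4883, 4884 and 5203 in Lung_ON (0.38 ± 0.13, adjusted p = 0.0339, under the fold threshold).

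**Figure D4:**
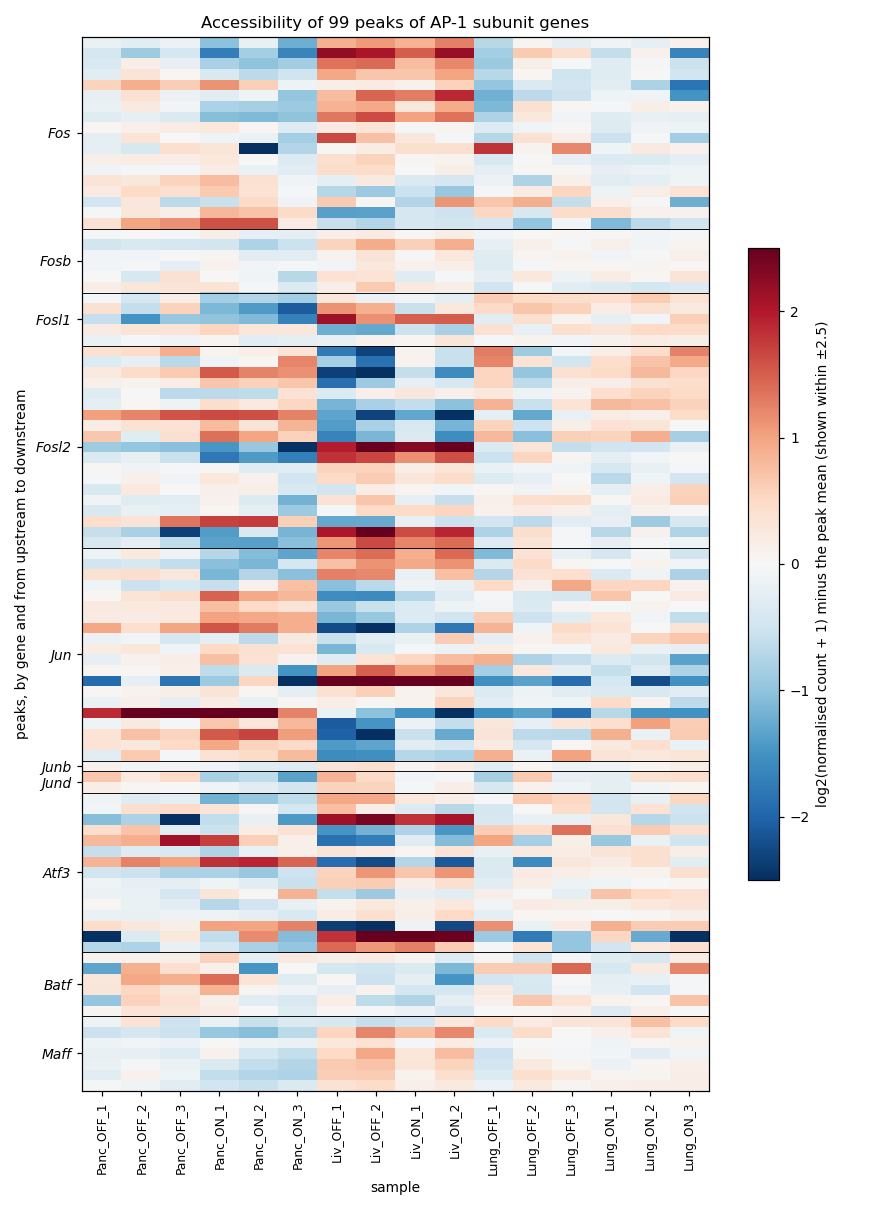
Log2(normalised count + 1) minus the peak's mean over the 16 libraries, for the 99 peaks (rows, by gene and from upstream to downstream) and the 16 libraries (columns). Colours are clipped at ±2.5. The 4 liver columns stand apart from the other 12 at many rows, in both directions.

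On Smad4 restoration in the pancreas 9 of the 99 peaks (9.09%) fell and 0 rose, beside 3.06% and 0.364% of all peaks. The 9 were 2 each at Fos, Fosl2 and Jun and 1 each at Fosl1, Jund and Maff, none of them a start-site peak. The peak with the smallest p lay 9.49 kb upstream of Fosl1 (chr19:5437842-5438265), with 67.5, 33.9 and 76.9 counts in Panc_OFF and 23.1, 18.6 and 11.5 in Panc_ON. The groups did not overlap (-1.66 ± 0.33, adjusted p = 0.0234). The peak 10.7 kb upstream of Fosl2 (chr5:32124783-32125462) held 44.4, 50.9 and 38.9 counts in Panc_OFF and between 16 and 21 in Panc_ON, with no overlap (-1.27 ± 0.28, adjusted p = 0.0336). The peak 81.7 kb upstream of Jun (chr4:95133528-95134283) held 167, 174 and 157 counts in Panc_OFF and 57.8, 76.8 and 61.3 in Panc_ON (-1.34 ± 0.31, adjusted p = 0.0378). Of the rest, the Fos peak 21.7 kb upstream fell from a mean of 833 to 489 (-0.77 ± 0.18, adjusted p = 0.0441), and the Jund peak 11.2 kb upstream from 118 to 45.1 (-1.38 ± 0.33, adjusted p = 0.0445). The count rested on every pancreas library, since it was 0, 1 and 2 without Panc_OFF replicate 1, 2 and 3 and 1, 4 and 5 without Panc_ON replicate 1, 2 and 3, and it was 4 after GC correction. With the lung samples blocked by replicate number it was 14, and with DESeq2 also 14, beside 2621 higher and 6673 lower of all 136630 peaks. Of the 9 lowered peaks 1 held an AP-1 match, and over all peaks away from start sites 2.10% of those with a match fell and 3.91% of those without. Start-site sums of the ductal markers were also lower after restoration, at 20828 to 23807 in Panc_OFF and 15844 to 19458 in Panc_ON. Among the ductal markers Sox9 went the other way, with means of 3155 and 3500. Acinar marker sums were lower too, at 104 to 161 and 77.3 to 97.8. The part of these markers in the fall was not tested.

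In the liver 1 peak rose and 0 fell on restoration, beside 0.462% and 0.0886% of all peaks. It lay 16.6 kb downstream of Jun (chr4:95035309-95035959), with 19.7 and 30.7 counts in Liv_OFF and 78.0 and 56.9 in Liv_ON (1.40 ± 0.32, adjusted p = 0.096), and the call was lost in 20 of 29 alternatives, among them the removal of Liv_OFF replicate 1 or of Liv_ON replicate 1. In the lungs 0 peaks were called in either direction by limma, edgeR and DESeq2. Of all peaks limma called 0.00146% higher and 0.0022% lower, edgeR called 2 and 3 peaks, and DESeq2 called 452 and 545 peaks. At an unadjusted p under 0.05, 4 of the 99 were counted, beside 7.11% of all peaks. The smallest adjusted p among the 99 in the lungs was 0.59.

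The average of the 3 restoration effects called 6 peaks higher and 6 lower, beside 3.61% and 3% of all peaks. The average shares its libraries with the 3 single comparisons. The 3 higher peaks of smallest p were 2 downstream of Jun, at 16.6 kb (0.84 ± 0.16, adjusted p = 0.0116) and 19.3 kb (1.01 ± 0.23, adjusted p = 0.0238), and the one 83.5 kb upstream of Fosl2 (0.95 ± 0.20, adjusted p = 0.0153). The last held 748, 613 and 572 counts in Panc_ON against 307, 353 and 406 in Panc_OFF, 171 and 86.3 in Liv_ON against 50.6 and 41.8 in Liv_OFF, and 364, 452 and 369 in Lung_ON against 375, 131 and 337 in Lung_OFF. Its groups were apart in pancreas and liver and overlapped in the lungs. The 3 lower peaks of smallest p were those already described upstream of Fosl1 (-1.04 ± 0.21, adjusted p = 0.0129) and 81.7 kb upstream of Jun (-0.91 ± 0.19, adjusted p = 0.0156), and one 50.1 kb upstream of Atf3 (chr1:191267809-191268381), which held 88.0, 75.9 and 79.6 counts in Panc_OFF and 40.9, 48.3 and 60.6 in Panc_ON, 186 and 184 in Liv_OFF and 113 and 107 in Liv_ON. Its average log2 fold change was -0.63 ± 0.17 (adjusted p = 0.0382). Without Liv_OFF replicate 1, Liv_ON replicate 1 or Lung_ON replicate 1 the count of 12 became 7. Of the 6 higher peaks 4 held an AP-1 match and of the 6 lower ones 0. Over all peaks away from start sites, 6.26% of those with a match were higher and 1.27% lower, against 2.30% and 4.66% of those without. Among start-site peaks, that of Jund (-0.26 ± 0.07, adjusted p = 0.0377), of Fos (-0.24 ± 0.07, adjusted p = 0.0615) and of Fosl2 (-0.19 ± 0.06, adjusted p = 0.0638) passed the p threshold without reaching the fold threshold.

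**Figure D5:**
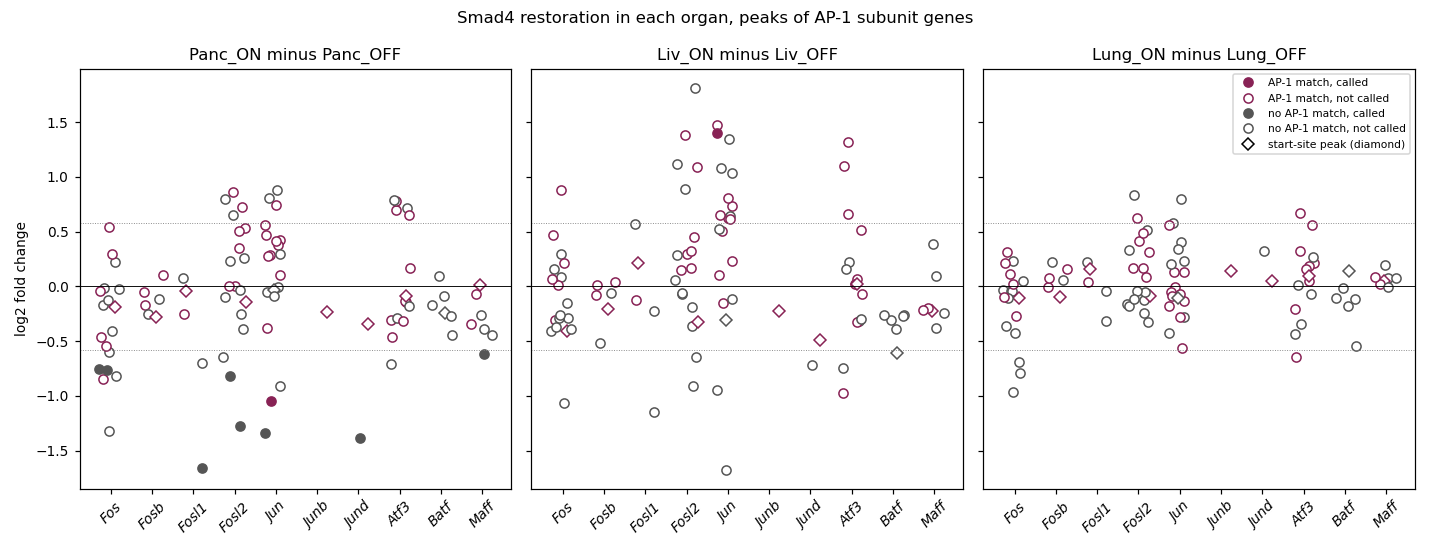
Log2 fold change on Smad4 restoration (y axis) of each of the 99 peaks, by gene (x axis), in pancreas, liver and lungs. Filled points were called, open points were not, diamonds are start-site peaks, purple marks a peak with an AP-1 match, and dotted lines mark ±0.58. The 9 filled points in the pancreas are all below 0, the liver has 1 filled point and the lungs have none.

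The differences between restoration effects were tested directly. For liver minus lungs, liver minus pancreas and lungs minus pancreas 0 of the 99 peaks were called, beside 0% of all 136630 peaks in each. At an unadjusted p under 0.05 the counts were 8, 4 and 14 of 99, and the smallest adjusted p-values were 0.927, 1 and 0.253. edgeR called 0 in each, and DESeq2 called 0, 0 and 1, the last beside 1576 higher and 674 lower of all 136630 peaks. The last count was 1 with the lung samples blocked by replicate number and 5 without Lung_OFF replicate 2. A restoration call in the pancreas and none in the lungs was therefore no called difference between them by limma.

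The peaks were then sorted by the AP-1 motif, TGACTCA on either strand. It occurred in 47 of the 99 (47.5%) and in 41.5% of all peaks, and among peaks between the quartiles of member width in 55.1% of members and 44.2% of all. The CRE (TGACGTCA) occurred in 3 start-site peaks (Fosb, Jund and Maff) and in 1.28% of all peaks, the SMAD palindrome GTCTAGAC in 2 members and 0.906% of all, and the CArG box in 7 members and 4.35% of all. Start-site peaks are far wider than the median peak, which raises the chance of a match. Outside the start-site peaks, 39 members had an AP-1 match and 50 had none. Of the 39, 10 were higher and 18 lower in Liv_OFF than in Lung_OFF (median log2 fold change -0.17), and of the 50, 19 were higher and 8 lower (median 0.41). Over all peaks away from start sites the corresponding shares were 15.2% higher and 41.0% lower with a match (median -0.59) and 29.0% higher and 20.5% lower without (median 0.19). The same lean by motif was thus present across the whole table, and no test was made of the members against it. Against Panc_OFF the members with a match were 11 higher and 17 lower and those without 21 higher and 9 lower, where the shares over all peaks away from start sites were 18.8% and 43.1% with a match and 32.4% and 29.1% without.

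Other genes of the pathway were taken from 3 lists. Over all peaks 22.9% were higher and 26.8% lower in Liv_OFF than in Lung_OFF, with a median log2 fold change of 0.00. Of 65 peaks at 10 other AP-1-related bZIP genes, 14 were higher and 20 lower in Liv_OFF than in Lung_OFF (median log2 fold change 0.19). The peak of smallest p among the higher was at the promoter of Mafk, a small Maf relative of Maff (6908 ± 460 counts, SD, n = 2, against 4348 ± 396, n = 3), and among the lower it lay 75.7 kb upstream of Maf (119 ± 22.3 against 262 ± 30.4). Of 104 peaks at 12 kinases and ternary complex factors that act upstream of AP-1, 24 were higher and 33 lower (median -0.25). These were led by a peak 10.4 kb upstream of Mapk3, the gene of the kinase ERK1 (349 ± 38.6 against 67.8 ± 28.8), and an intronic one at Elk3, a ternary complex factor (290 ± 25.7 against 663 ± 81.5). Of 192 peaks at 14 textbook AP-1 targets, 39 were higher and 89 lower (median -0.63). The higher were led by a peak 19.2 kb upstream of Vegfa, the angiogenic growth factor gene (303 ± 125 against 53.4 ± 17.1), and the lower by an intronic peak of Cd44, the hyaluronan receptor gene (830 ± 115 against 2131 ± 250). On restoration in the pancreas the 3 lists had 0, 0 and 2 peaks higher and 1, 1 and 9 lower, beside 0.364% and 3.06% of all peaks. On average over organs they had 0, 0 and 20 higher and 2, 2 and 5 lower, beside 3.61% and 3% of all peaks.

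The surrounding region was read from peaks within 2 Mb of each start site that belonged to no member. Their median log2 fold change between Liv_OFF and Lung_OFF was 0.45 around Fosl2, 0.42 around Fosb, 0.28 around Fosl1, 0.23 around Atf3, 0.21 around Jund, 0.14 around Junb and Batf, 0.13 around Fos and 0.10 around Maff. Around Jun it was -0.38, while the start-site peak of Jun went the other way. Over all peaks of a gene the median was -0.56 at Jun, on the side of its region, -0.18 at Fosl2 and 0.32 at Fosb. The neighbourhoods of Fosl2 and Fosb thus moved in the same direction as their start-site peaks, by 0.45 beside 0.66 and by 0.42 beside 0.67. On Smad4 restoration in the pancreas the regional medians ran from -0.25 around Fosl1 to 0.20 around Jun, beside 0.04 for all peaks. Between Lung_ON and Panc_ON they ran from -0.19 around Jun to 0.38 around Fosl1. The part of the region in any of these differences was not tested.

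For the 3 members whose start-site peak differed most over the groups, the most similar start-site peaks among 13351 genes were found by Pearson correlation of log2 values over the 16 libraries, which share 3 organs. For Fosl2 these were Lcorl (r = 0.98), Fam53a (r = 0.98) and Cdkn2c (r = 0.97), for Jun Atp7a (r = 0.99), Rras (r = 0.98) and Lta4h (r = 0.98), and for Jund Scamp5 (r = 0.97), Smim13 (r = 0.97) and Vps4a (r = 0.97).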

How the data were processed

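Accessibility was profiled by bulk ATAC-seq in sorted tumour cells (16 samples), grouped into 6 groups by their titles. A further allele that all samples share is not reported here. Per the study's methods the authors trimmed reads with Trim Galore and cutadapt, aligned them to mm10 (GRCm38) with Bowtie2, called peaks with MACS2 at p of at most 0.001, dropped blacklisted ones, joined those closer than 500 bp to form an atlas, counted reads with featureCounts and scaled them with DESeq2 size factors. FastQC 0.11.5 is named in the submitters' processing notes. The deposited values are a normalised count signal per peak. Tn5 shifting and duplicate removal are not given in the sources used here. Every value was a whole multiple of what 1 read is worth (100% within 0.1 reads), which gave back the reads: 22495044 to 37510981 per sample in nuclear peaks, with a median of 36 to 76 per peak. The mitochondrial row (1.43% to 3.56% of reads) was left out. No column was left unmatched to a sample.

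Peaks were assigned to GENCODE vM21 basic protein-coding start sites by midpoint within 100 kb, with peak starts taken as 1-based. Distances, GC content and motifs came from the GRCm38 reference. limma 3.58.1 (R 4.3.3, trend and robust) was fitted to log2(normalised count + 1) with a mean per group over all 16 samples and 136630 peaks, and Benjamini-Hochberg adjustment covered all peaks. Because of the added 1, fold changes of peaks with few reads come out too small. The fit was tested on simulated data. Alternatives were edgeR 4.0.16 and DESeq2 1.42.0 on the recovered reads, a pseudocount of 10, a mean of at least 20, TMM factors, quantile normalisation, GC correction, stricter thresholds (1 and 0.05), fitting the compared groups alone, replicate blocks, each sample left out and assignment within 50 kb. Samples are separate mice of a group. Each p-value sets a difference against a spread between samples that is pooled over the 6 groups and partly shared across peaks. For the liver that spread rests mostly on the other groups. The members and lists were chosen with earlier results of these data known. Named were the start-site peak of every member (the assigned peak nearest its start site), its distal peak (over 1000 bp from any start site) of smallest F-test p over the 6 groups, up to 3 called peaks of smallest p per direction for each restoration comparison, the 3 best-correlated genes of 3 members, and the peak of smallest p per direction in each pathway list. Other peaks are said to be chosen after their values were seen or described by range. Deviations from the group mean were correlated between Smad4-off and restored samples with the same replicate number. The correlations were 0.491, 0.124 and 0.214 in the lungs, -0.33, 0.0271 and -0.33 in the pancreas and 0.0834 in the liver. Deviations within a group depend on one another, so the values of an organ are not independent. The 0.491 involved Lung_OFF replicate 1, which stood apart from its group.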

Additional observations from a re-analysis of the deposited data

How the results depend on the processing

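Depth was 22495044 to 37510981 reads per library and the liver groups had 2 libraries each, so that leaving out 1 liver library leaves a lone sample, which is assumed to vary like the other groups. Over 86 called fold changes of named peaks, the alternatives lost between 0 calls (a mean of at least 20) and 19 (quantile normalisation), and 0 changed sign. The counts of called peaks between Liv_OFF and Lung_OFF (60), Liv_OFF and Panc_OFF (60) and Liv_ON and Panc_ON (63) stayed within 1.5 times under every alternative run. The cause of the following shifts was not tested, apart from the stricter thresholds and the shorter distance, which by construction allow fewer calls.

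With thresholds of 1 and 0.05 the count was 16 in place of 36 between Lung_ON and Panc_ON, 4 in place of 9 for restoration in the pancreas, 0 in place of 1 in the liver and 2 in place of 12 on average. Assignment within 50 kb gave 7 on average. GC correction gave 4 in the pancreas. DESeq2 gave 14 in the pancreas, 6 in the liver and 1 for the difference between lungs and pancreas. The 6 stood beside 2614 higher and 572 lower of all 136630 peaks, where limma called 631 and 121. In the liver the count was 0 with a pseudocount of 10, quantile normalisation, a fit of only the groups compared, GC correction (alone or with either block), edgeR and the block within each organ, and 2 with TMM factors.

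Leaving out 1 library at a time gave 3 (without Panc_OFF replicate 3) to 17 (without Lung_OFF replicate 1) between Lung_OFF and Panc_OFF, 18 to 44 between Liv_ON and Lung_ON, 23 to 39 between Lung_ON and Panc_ON, 0 to 12 for restoration in the pancreas, 0 to 4 in the liver, 7 to 18 on average and 0 to 5 for the difference between lungs and pancreas. The replicate block in the lungs, where the correlation by replicate number reached 0.491 (replicate 1), gave 0 calls there as before. It moved the pancreas count to 14, the liver count to 2 and the difference between lungs and pancreas to 1. The labels give only a replicate number in every organ, and no pairing. Blocks were also run over the other organs: the replicate block over all groups left 60 calls between Liv_OFF and Lung_OFF and the block within each organ gave 10 in the pancreas.

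The median over all 136630 peaks moved from -0.05 to -0.14 between Liv_OFF and Panc_OFF with TMM factors and from 0.00 to 0.15 between Lung_ON and Panc_ON with GC correction. In that comparison the 24 higher and 12 lower peaks became 25 and 8 with GC correction and 23 and 11 after quantile normalisation, and on average the 6 and 6 became 4 and 5 with GC correction.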
